A study of Mus musculus with 18 samples.

Results

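The regions described here were 1914 bins of 1 Mb on the mouse autosomes other than chromosome 12, the chromosome that carries the immunoglobulin heavy chain locus (Igh). They were ordered by the number of protein-coding genes that start in them, and the contacts each bin made with an enhancer of Igh were measured by 4C-seq, a method that amplifies and sequences what was ligated to 1 chosen bait. Bins from 13 Mb on each of 18 chromosomes to 10 Mb before its end were taken, without the light chain loci Igk and Igl, out of 2280 bins that start at 3 Mb. They held 16510 of the 21900 protein-coding genes of the RefSeq table (mm10). The gene-rich bins, the top 25% by this number, were 494 with 12 to 66 gene starts each (10890 genes), the gene-poor bins, the bottom 25%, were 610 with 0 to 2 (524 genes, and 228 bins with 0), and 810 bins lay between. The cuts fell on whole gene numbers, so the 2 classes are unequal in size.

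The bait was the intronic enhancer Eμ of Igh. The cells were mature splenic B cells negative for CD43, wild type (WT) or carrying a mutation of Med1, a subunit of the Mediator complex. Each genotype was sampled resting on day 0, after 2 days in culture with lipopolysaccharide and interleukin 4 (LPS+IL4), and after 2 days with LPS alone, with 3 libraries in each of the 6 groups. All cells were fixed in 2% formaldehyde, and the template was cut with DpnII and then Csp6I. The labels name neither the allele of Med1, nor a Cre driver, nor the age of the animals, nor whether replicates are separate animals, so p-values measure the spread between these libraries, which may be technical.

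Each 24 bp interval in the files is the end of a DpnII fragment, and an end with at least 1 read is called a covered end. Reads per end came with the 12 libraries of resting and LPS+IL4 cells, whereas the 6 LPS libraries came later as lists of covered ends with no value and were mapped with another aligner. The LPS condition therefore cannot be told apart from its deposit, and it enters through covered ends only. The files held 46417 to 112113 covered ends, of which 61.1% to 64.1% lay in the bins, and 2470497 to 21074434 reads in the 12 libraries with counts. The mutant LPS+IL4 replicate 2 stood apart as the deepest library on both scales. In the first deposit the WT titles contain KO although the genotype label is WT, which was followed, and 1 WT LPS+IL4 library (replicate 2) has anti-CD40 with IL4 in its protocol in place of LPS with IL4. The 12 libraries with reads were also split into 2 sets that no label names, each with both genotypes and both days. A group of 86 chromosome 12 ends was picked as well covered in most libraries of the second set only. The sets therefore differ at these ends by selection. Values within the sets are given beside the main result. The reads carry no molecular identifiers and count PCR products, so an end with many reads is not many cells.

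Chromosomes occupy territories in the nucleus, and regions rich in active genes tend to lie together in the interior while gene-poor regions gather at the lamina and around the nucleolus. A locus with an active enhancer is known to touch the gene-rich compartment of other chromosomes more often than the gene-poor one. Resting B cells are small, with compact chromatin, and LPS with or without IL4 makes them grow, divide and begin class switching at Igh.

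A contact is a DpnII end, and such ends can be shown where a promoter holds one. Of the RefSeq promoter windows (GRCm38.p6) of protein-coding genes, 16020 lay whole in a bin, and they held 17325 ends beside a GATC, the DpnII site. The files listed 884 of these ends in at least 1 of the 18 libraries, and 884 of 884 lay directly beside a GATC in the sequence. The 7 ends below were chosen for the number of libraries that listed them, from gene-rich bins (5 ends, 4 of them in bins that changed on activation) and from gene-poor bins (2 ends). Each is read outward from the DpnII site, which is in capitals.

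Sp110, chr1:85604093-85604120, minus strand, gene-rich bin: GATCttcagccatagtggctatggattc
Srebf2, chr15:82147091-82147118, plus strand, gene-rich bin: GATCgatgacgcaccatcaccccatgag
H2-K1, chr17:34000324-34000351, minus strand, gene-rich bin: GATCaccaagaaccaatcagtgtcgccg
Actr1a, chr19:46395841-46395868, minus strand, gene-rich bin: GATCgggctgggacccggtttggagcgc
Dennd4a, chr9:64810964-64810991, plus strand, gene-rich bin: GATCtcagctcagaccactgcaccaagc
Pcdh20, chr14:88471431-88471458, plus strand, gene-poor bin: GATCcagcagttctttgcactgagcaag
Dpyd, chr3:118561944-118561971, minus strand, gene-poor bin: GATCcccagaattaaaagcaaacaattg

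The end beside Sp110, which encodes a nuclear body protein of immune cells, was listed in 17 of 18 libraries. It had 17, 3 and 1 reads in WT resting replicates 1 to 3, 3, 4 and 1 in the mutant resting ones, 34, 33 and 10 in WT LPS+IL4 and 19, 21 and 1 in mutant LPS+IL4. Every other end shown was listed in 2 or 3 of 18. The end at H2-K1, a class I histocompatibility heavy chain, had 127 and 31 reads in WT LPS+IL4 replicates 1 and 2, 55 in mutant resting replicate 3 and 0 in the other 9 libraries with reads. The end at Pcdh20, which encodes a protocadherin, had 557 reads in WT resting replicate 1, 2 in WT LPS+IL4 replicate 3 and 0 elsewhere. Apart from the Sp110 end, the ends shown thus had reads in few libraries and 0 in most others. Among all 291269 ends listed in the bins, 64.9% were seen in 1 library only, 68.5% in gene-rich and 57.5% in gene-poor bins. For this reason contacts are compared over bins and classes of bins, on 2 scales: reads per bin and the number of different ends covered per bin.

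Counted per bin, Eμ contacted gene-rich bins more than gene-poor bins in resting cells, and the excess was smaller after 2 days with LPS+IL4. On the log2 scale of mean reads per bin, gene-rich over gene-poor, the WT resting replicates 1 to 3 stood at 1.34, 1.26 and 1.22 (mean 1.27 ± 0.06, SD, n = 3). The mutant resting replicates stood at 1.02, 1.12 and 1.16 (1.10 ± 0.07). With LPS+IL4 the WT replicates were at 0.56, 0.57 and 0.47 (0.54 ± 0.05) and the mutant ones at 0.51, 0.53 and 0.45 (0.50 ± 0.04). As folds, a gene-rich bin held 2.42 times the reads of a gene-poor bin in WT resting cells and 1.45 times with LPS+IL4, against 2.15 and 1.41 times in mutant cells. The 6 resting libraries all lay above the 6 activated ones, with no overlap. Over the 12 libraries the mean ratio was 0.85, or 1.80-fold, and was above 0 in 12 of 12 (exact two-sided sign-flip p = 0.000488, the smallest possible). Bins just inside and outside the cuts held, in WT resting cells, 336 reads per 1000000 reads of the bins (rpm) at 2 gene starts (142 bins), 361 at 3 (130 bins), 646 at 11 (45 bins) and 493 at 12 (44 bins).

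**Figure D1:**
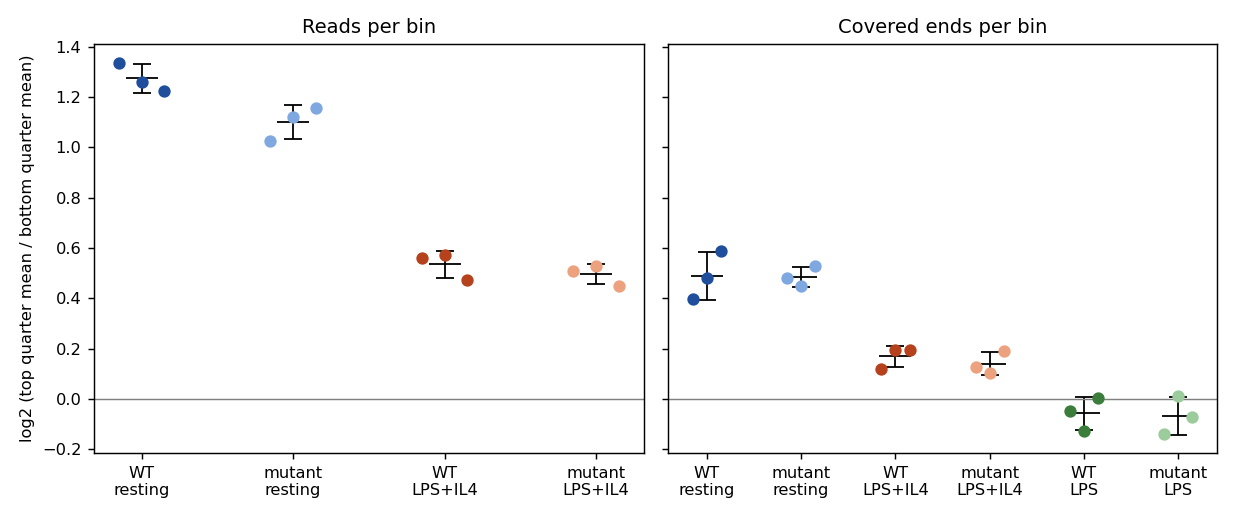
Each point is 1 library's log2 ratio of the mean gene-rich (top) bin to the mean gene-poor (bottom) bin, for reads (12 libraries) and for covered ends (18 libraries), by group, with bars at the mean ± SD of 3 libraries. Resting libraries lie above LPS+IL4 libraries on both scales, and the LPS libraries, which have covered ends only, lie around 0.

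Covered ends gave the same order of conditions with smaller ratios. On the log2 scale of covered ends the WT resting replicates were at 0.40, 0.48 and 0.59 and the mutant ones at 0.48, 0.45 and 0.53. With LPS+IL4 the WT replicates were at 0.12, 0.19 and 0.20 and the mutant ones at 0.13, 0.10 and 0.19. The group means were 0.49 ± 0.10 and 0.49 ± 0.04 (SD, n = 3) at rest and 0.17 ± 0.04 and 0.14 ± 0.04 with LPS+IL4, WT first. With LPS alone the mean was -0.06 ± 0.07 in WT and -0.07 ± 0.08 in mutant cells, below every resting and every LPS+IL4 library. The mean of all 18 libraries was 0.19, or 1.14-fold (exact two-sided sign-flip p = 0.00339), above 0 in all 12 libraries of the first deposit and in 2 of the 6 LPS libraries. This level moves with the number of listed ends: gene-rich bins held 205 ends listed in any library, middle bins 138 and gene-poor bins 128. Divided by the listed ends, the ratio turned to -0.49 for covered ends, and it was below 0 in each of the 18 libraries (-0.82 to -0.096). For reads the ratio was then 0.17 and no longer past the threshold (exact two-sided sign-flip p = 0.138). The number of DpnII ends per bin was not counted from a genome, and a listed end had to be seen at least once. The size of the gene-rich excess, and for covered ends its direction, thus depends on this scale. The change between conditions is the same with or without this division, by construction.

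The fall with activation was tested by exact permutation of the condition within each genotype, 6 libraries against 6. For reads the ratio dropped by 0.67 (exact permutation p = 0.005, the smallest of 400 arrangements, adjusted p = 0.0325 over 13 comparisons of such ratios), by 0.74 in WT and by 0.61 in mutant cells. For covered ends it dropped by 0.33 (exact p = 0.005, adjusted p = 0.0325), by 0.32 in WT and by 0.34 in mutant cells. Within a genotype, 3 libraries against 3 cannot go below an exact p of 0.1, and all 4 of these contrasts stood there with no overlap. With any 1 library left out the drop was 0.66 to 0.69 for reads and 0.31 to 0.35 for covered ends. Within the first library set the reads ratio dropped by 0.62 and within the second by 0.70. With reads thinned to 878307 per library, the covered ends ratio dropped by 0.34, although the thinned libraries still differed in covered ends (27245 to 32593 at rest and 28284 to 40293 with LPS+IL4). Whether it differed between genotypes was not tested on the ratio.

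Shares of reads on both sides of the ratio differed between conditions, and which side did depended on the total. Of the reads of the bins, gene-poor bins held 21.8% to 24.7% in the 6 resting libraries and 27.9% to 29.4% in the 6 LPS+IL4 libraries, and gene-rich bins 40.6% to 44.6% and 32.2% to 33.97%. Of the reads more than 5 kb from the bait, gene-rich bins held 18.98%, 18.4% and 18.2% in the WT resting replicates and 12.4%, 11.7% and 11% with LPS+IL4. In mutant cells they held 17.4%, 17.7% and 17.5% at rest and 12.3%, 12.0% and 11.5% with LPS+IL4. The groups did not overlap, and the difference was -6.22 percentage points (exact p = 0.005, adjusted p = 0.0357 over 50 comparisons of library measures). Gene-poor bins held a mean of 9.47% at rest and 9.97% with LPS+IL4 in WT, and 10.1% and 10.4% in mutant cells, a difference of 0.42 points that overlapped between groups (exact p = 0.045, adjusted p = 0.179). The bins together held 42.4% of these reads at rest and 35.6% with LPS+IL4 (exact p = 0.005, adjusted p = 0.0357).

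In the 12 libraries with reads, gene-rich bins had both more covered ends and more reads at each. Reads per covered end, gene-rich over gene-poor on the log2 scale, averaged 0.70 at rest and 0.36 with LPS+IL4 (exact p = 0.005, adjusted p = 0.0357), with no overlap. Part of the reads of gene-poor bins came from ends that every library listed. There were 1783 such ends in the bins, 380 in gene-rich and 780 in gene-poor bins, and they held 8.15% to 14.9% of the reads of gene-rich bins but 35.0% to 40.4% of those of gene-poor bins. With these ends left out, the reads ratio was 1.86 in WT and 1.65 in mutant resting cells and 0.97 and 0.93 with LPS+IL4, and the drop with activation was 0.80 (exact p = 0.005).

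The rise with gene number was graded rather than a step. In WT resting cells the mean bin with 30 to 66 gene starts (92 bins) held 1358 ± 27.5 rpm (SD, n = 3). Bins with 20 to 29 starts held 950, with 12 to 19 held 696, with 6 to 11 held 462, with 3 to 5 held 360 and with 1 or 2 held 332. Bins with 0 gene starts (228 bins) held 424 ± 20.8, above those with 1 to 5, so the lowest level was not in the gene deserts. With LPS+IL4 the same classes in WT cells ran from 867 in the richest through 674, 609, 502, 435 and 403 to 568 in bins with 0 starts. The richest class thus held fewer and the class with 0 genes more of the reads than at rest, and the mutant classes went the same way (1233 to 857 in the richest and 460 to 553 in bins with 0 starts). For covered ends, per 100000 covered ends of the bins, WT bins with 0 starts held 56.4 at rest, 60.6 with LPS+IL4 and 67.5 with LPS, and the richest class 91.8, 70.6 and 65.1. With LPS the 2 extremes were therefore at about one level, with a low of 44.1 between them in bins with 3 to 5 starts.

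**Figure D2:**
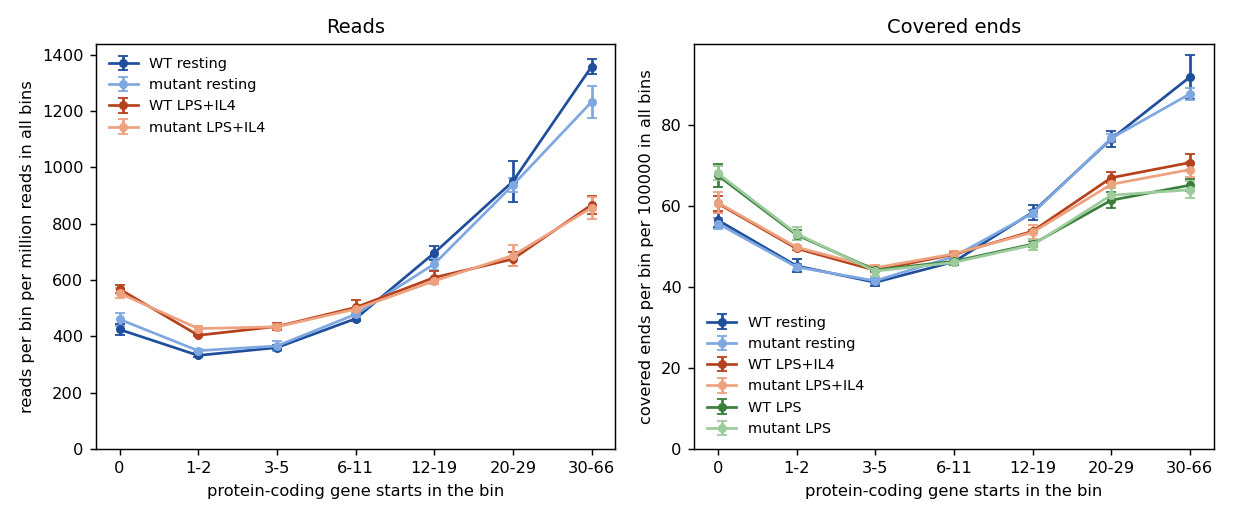
Mean bin by number of gene starts in 7 classes from 0 to 30 or more, as rpm and as covered ends per 100000 covered ends of the bins, with 1 line per group and bars of ± SD over 3 libraries. In resting cells both curves first dip and then climb, in WT from 332 rpm in bins with 1 or 2 gene starts to 1358 in the richest class and from 41.1 covered ends in bins with 3 to 5 to 91.8, and the curves of activated cells rise less.

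As a description over 1914 bins of the same libraries, Spearman's rho between gene starts and reads was 0.48 in WT resting and 0.37 in WT LPS+IL4 cells. For covered ends it was 0.25, 0.11 and, with LPS, -0.03. Gene starts also went with the number of listed ends (rho = 0.47), so the bins were divided into 3 classes by listed ends. In the lowest class (22 to 119 listed ends, 39 gene-rich and 276 gene-poor bins), the reads ratio was -0.02 in WT resting cells. In the middle class (120 to 165) it was 0.28, and in the highest (166 to 431, 346 gene-rich and 103 gene-poor bins) 1.12, falling to 0.32 with LPS+IL4. Listed ends are counted in these same libraries, so a bin with many contacts falls in the highest class by construction, and these values do not show where the excess lies. In that highest class the covered ends ratio was 0.01 at rest, -0.32 with LPS+IL4 and -0.62 with LPS in WT cells.

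Not every gene-rich bin behaved alike, and levels differed with the kind of gene a bin holds. Of the 494 gene-rich bins, 49 had at least 50% of their genes in lists of sensory receptors (43 bins, of olfactory and vomeronasal receptors) or of epithelial and secreted protein clusters (6 bins), families known from sensory and epithelial tissues. Their log2 reads over the gene-poor bins were 0.49, 0.74 and 0.37 in the WT resting replicates and 0.38, 0.51 and 0.34 with LPS+IL4. The other 445 gene-rich bins stood at 1.41, 1.31 and 1.29 at rest and 0.58, 0.58 and 0.49 with LPS+IL4. In mutant cells the cluster bins were at 0.49, 0.21 and 0.45 at rest and 0.27, 0.32 and 0.36 with LPS+IL4, and the others at 1.07, 1.19 and 1.22 and then 0.53, 0.55 and 0.46. The 2 kinds of gene-rich bin were thus far apart at rest in every library and close with LPS+IL4. Cluster over other gene-rich bins, the log2 difference in reads was -0.79 at rest and -0.17 with LPS+IL4 (exact p = 0.005 for the change of 0.62, adjusted p = 0.0357 over 50).

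On covered ends the same bins did not lie lower. Cluster over other gene-rich bins was -0.01 at rest and 0.37 with LPS+IL4 (exact p = 0.005 for the change), and 0.57 in WT and 0.55 in mutant cells with LPS. The mean of 18 libraries was 0.31, or 1.24-fold (exact two-sided sign-flip p = 0.00032), and that of the 12 libraries with reads 0.18, with a range of -0.08 to 0.45. The 18 libraries pool conditions that differ on this measure, with LPS not told apart from its deposit. The gene lists were chosen with earlier results of these data known, so the sign-flip p-value is not independent support. Over the 12 libraries with reads the positive mean rested on ends with few reads: with ends of at least 10 reads it was -0.34. With ends of at least 2 reads it was 0.04. Both values pool resting and LPS+IL4 libraries and were not split by condition. The LPS files hold no reads, so this was not tested for LPS.

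**Figure D3:**
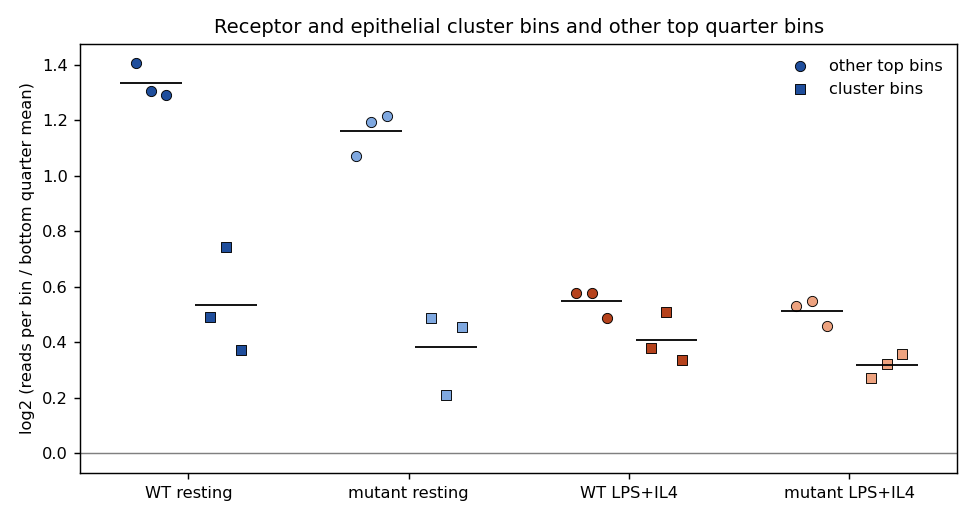
Each point is the log2 ratio of reads per bin to the gene-poor bins in 1 of the 12 libraries with reads. Shown are the 49 gene-rich (top) bins of sensory receptor and epithelial gene clusters and the other 445 gene-rich bins. The cluster bins lie below the others in resting cells, at 0.37 to 0.74 against 1.29 to 1.41 in WT, and the gap narrows with LPS+IL4. Covered ends are not plotted.

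The bins of other gene lists placed this in order. In WT resting cells the 29 bins that each hold 1 of 29 B cell genes held 1270 ± 76.5 rpm (SD, n = 3) and the 131 bins with a ribosomal or proteasome gene 1029 ± 46.9. The 13 bins with genes of other blood cells held 1049 and the 11 histone gene bins 863. The 149 bins with a zinc finger gene held 776, the 22 bins of long neuronal and tissue genes 703, the 114 sensory receptor bins 597 and the 31 epithelial bins 507, against 522 for the mean bin. The order partly turns on medians: the median bin of the long neuronal and tissue genes held 217 rpm, below the 341 of all bins, and the median sensory receptor bin 445. With LPS+IL4 the WT values were 811 in B cell gene bins, 738 in ribosomal and proteasome bins, 819 in other blood cell gene bins and 588 in sensory receptor bins, and in mutant cells the B cell gene bins went from 1162 to 778. At rest the bins of genes of other blood cells thus stood with the ribosomal and B cell gene bins, and the epithelial bins near the mean bin. The lists overlap in bins, and gene number was not held equal between them.

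Bin by bin, changes with activation were tested with edgeR's quasi-likelihood test on reads and limma on covered ends as log2 shares, with Benjamini-Hochberg adjustment over all bins. Since gene-rich bins fell as a share of the bins' reads, the median bin lay above 0, at 0.21 in WT and 0.19 in mutant cells on the log2 scale of reads. On reads, 4 of 1914 bins changed in WT cells (0.209% called), all lower with LPS+IL4 and all gene-rich. In mutant cells 9 bins changed (0.470% called), 8 lower, all gene-rich, and 1 higher (0.0522%) that was gene-poor. One bin was lower in both genotypes. The median of gene-rich bins was -0.30 in WT and -0.15 in mutant cells, and that of gene-poor bins 0.43 and 0.36. These counts are sensitive to the library: without WT resting replicate 1, 2 or 3 the WT count was 0, 2 and 1, and the mutant count fell to between 1 and 5 without any 1 of its 6 libraries.

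On covered ends, with less scatter, 60 of 1909 bins changed in WT cells (3.14% called), 53 lower (2.78%) and 7 higher (0.367%). In mutant cells 96 changed (5.03% called), 84 lower (4.40%) and 12 higher (0.629%). The gene-rich bins held 46 of the 53 lower bins in WT, or 9.35% of the 492 tested, and 77 of the 84 in mutant cells, or 15.7%, while the gene-poor bins held 1 and 0. Of the lower bins 40 were lower in both genotypes, 75.5% of the WT ones and 47.6% of the mutant ones. None of the 49 cluster bins was lower in either genotype, and 1 and 2 of them were higher. Their median was 0.11 in WT and 0.16 in mutant cells, against -0.19 and -0.16 for the other gene-rich bins and 0.06 and 0.04 for all bins. The WT count was 31 and 25 without WT resting replicates 2 and 3 and 25 without WT LPS+IL4 replicate 1, and the mutant count was 60 and 61 without mutant LPS+IL4 replicates 1 and 3.

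**Figure D4:**
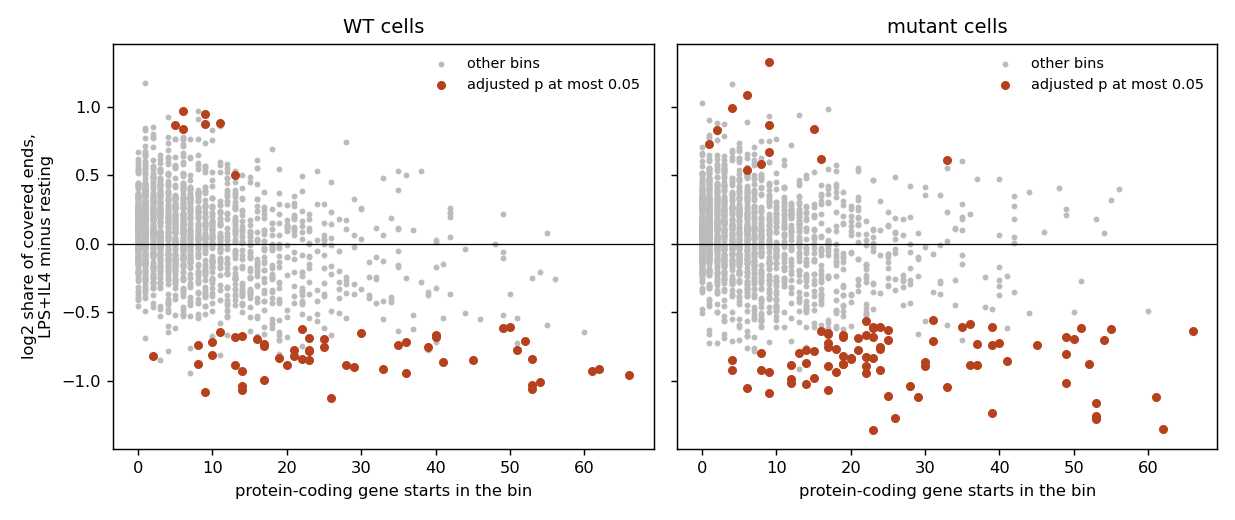
Each point is 1 bin's log2 change with LPS+IL4 from the fit, plotted against its number of gene starts, with bins that passed the adjusted threshold marked. The changed bins lie mostly below 0 and at high gene number, and the 46 lower gene-rich WT bins on covered ends are the largest such set after the 77 of mutant cells.

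The bin chr17:34000001-35000000 fell in both genotypes and on both scales. It has 53 gene starts, from Ring1 to D17H6S56E-5, and covers class II of the histocompatibility region, with the immunoproteasome genes Psmb8 and Psmb9. The promoter end of H2-K1 shown above lies in it, although H2-K1 is not among its gene starts. The bin held 3860, 3370 and 3964 rpm in WT resting replicates and 877, 1623 and 651 with LPS+IL4 (log2 -1.83 ± 0.35, SE, edgeR adjusted p = 0.0245). In mutant cells it held 4709, 4749 and 3311 and then 717, 421 and 993 (-2.58 ± 0.36, edgeR adjusted p = 0.00106). Its covered ends in WT fell from 173, 162 and 199 per 100000 to 85.0, 99.6 and 73.5 (-1.03 ± 0.18, limma adjusted p = 0.00014). Every activated library lay below every resting library in these 3 contrasts.

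The next bin, chr17:35000001-36000000, has 61 gene starts, runs from Vars to Gnl1 and includes Pou5f1, a pluripotency factor gene. It held 2734, 2294 and 3453 rpm in WT resting replicates and 832, 861 and 486 with LPS+IL4 (-1.96 ± 0.34, edgeR adjusted p = 0.0118). The bin chr4:133000001-134000000 (25 gene starts, Ahdc1 to Dhdds) held 4045, 2187 and 2225 at rest and 813, 502 and 486 with LPS+IL4 (-2.23 ± 0.36, edgeR adjusted p = 0.0111). The bin chr15:78000001-79000000 (26 gene starts, Ift27 to Triobp) changed on reads in WT (-1.92 ± 0.39, edgeR adjusted p = 0.0409) and on covered ends in both genotypes. Its covered ends went from 94.6, 101 and 114 per 100000 to 37.8, 44.2 and 57.2 in WT and from 82.2, 84.0 and 128 to 36.0, 46.0 and 34.7 in mutant cells. These 3 bins also showed no overlap between resting and activated libraries in the contrasts named.

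In mutant cells the bin chr15:82000001-83000000, which holds Tnfrsf13c, the receptor for the B cell survival factor BAFF, fell from 1987, 1612 and 1013 rpm to 129, 207 and 454 (-2.55 ± 0.52, edgeR adjusted p = 0.0251). The bin chr9:44000001-45000000 has 39 gene starts, among them the B cell homing receptor Cxcr5 and the T cell receptor subunits Cd3d and Cd3e, and fell from 3379, 2767 and 3515 to 474, 571 and 1215 (-2.10 ± 0.39, edgeR adjusted p = 0.0251). The bin chr19:46000001-47000000, with the Actr1a end shown above, fell on covered ends from 154, 141 and 134 per 100000 to 65.5, 61.3 and 40.04 (-1.36 ± 0.19, limma adjusted p = 7e-07). The gene-rich bin chr11:69000001-70000000 (62 gene starts, Ctc1 to Phf23) fell from 130, 148 and 157 to 62.3, 57.1 and 48.0 (-1.35 ± 0.18, limma adjusted p = 2.9e-07). All activated libraries again lay below all resting ones.

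A rise was rarer. The gene-poor bin chr6:96000001-97000000, whose only genes Tafa1 and Tafa4 encode small secreted proteins of the nervous system, held 4.03, 13.5 and 12.9 rpm in mutant resting replicates and 1023, 267 and 273 with LPS+IL4 (5.67 ± 1.13, edgeR adjusted p = 0.0251). The middle bin chr4:128000001-129000000 (9 gene starts) rose on covered ends in mutant cells from 27.4, 13.4 and 6.55 per 100000 to 32.8, 30.6 and 66.7 (1.33 ± 0.36, limma adjusted p = 0.0164). Its groups did not overlap but its replicates spread widely.

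The 29 bins with a B cell gene were lower on covered ends in 6 cases in WT cells and in 8 in mutant cells. Lower were 2.78% and 4.40% of all bins, and 9.35% and 15.7% of gene-rich bins. Of the 29 bins 17 were themselves gene-rich, and gene number was not held equal. None of the 29 was higher in WT and 1 was in mutant cells. Their median log2 change was -0.39 in WT and -0.46 in mutant cells, with 26 and 23 of 29 below 0. Below 0 were 41.2% and 44.6% of all bins, and 62.8% and 61.2% of gene-rich bins. Bins of Cd37, a tetraspanin, Pax5, the factor that keeps B cell identity, and Pim1, a kinase induced by cytokines, were lower in both genotypes. In WT cells those of Cd72 and Cd83 were among the others that were lower, and in mutant cells those of Cd22, Cd79a, Cxcr5, Ikzf3 and Tnfrsf13c. The bin of Mef2c, a gene-poor bin with 1 gene start, was higher in mutant cells (0.73 ± 0.23, limma adjusted p = 0.0470). A bin holds many genes, so its change is not that of the gene named. For the bin of Pax5 (8 gene starts) the covered ends numbered 30, 32 and 26 in the WT resting libraries and 21, 14 and 22 with LPS+IL4, and per 100000 they were 83.4 ± 14.3 and 49.4 ± 10.6 (SD, n = 3).

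Of the 131 ribosomal and proteasome gene bins, 18 were lower on covered ends in WT and 33 in mutant cells, with 0 and 1 higher and medians of -0.18 and -0.27. Among all bins 2.78% and 4.40% were lower, and among gene-rich bins 9.35% and 15.7%, which is the background for this and the following lists. Zinc finger bins were lower in 11 and 21 of 149, and higher in 2 and 2. Among the 13 bins with genes of other blood cells 0 and 2 were lower. Sensory receptor bins were lower in 1 and 3 of 114 and higher in 2 and 1, with a median of 0.08 in each genotype. Epithelial bins were lower in 1 of 31 in each genotype, histone bins in 1 of 11 and long neuronal and tissue gene bins in 1 of 22. Of the 131 ribosomal and proteasome bins 91 were themselves gene-rich.

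The bins with the most genes give the extremes. The richest, chr7:45000001-46000000, has 66 gene starts, among them Cd37 and the ribosomal protein genes Rpl13a and Rpl18. It held 2148, 3112 and 2334 rpm in WT resting replicates and 532, 810 and 1223 with LPS+IL4, and 137 ± 25.1 covered ends per 100000 at rest, 68.9 ± 7.41 with LPS+IL4 and 63.5 ± 16.6 with LPS (SD, n = 3). The bin chr7:103000001-104000000, with 56 gene starts that are nearly all olfactory receptors, held 342, 192 and 384 rpm in WT resting replicates and 255, 202 and 217 with LPS+IL4. Its covered ends were 88.0 ± 16.5 at rest, 73.0 ± 9.02 with LPS+IL4 and 96.4 ± 9.40 with LPS. In mutant cells its values were higher with LPS+IL4 than at rest, at 489 ± 212 against 254 ± 106 rpm and 87.8 ± 9.44 against 64.8 ± 2.50 covered ends, so it had no common direction. The bin chr2:25000001-26000000, with 60 gene starts and a cluster of lipocalins, secreted carriers of small molecules, held 1154 ± 105 rpm and then 620 ± 237. Among bins of like gene number the reads at rest thus differed several-fold, and the olfactory bin was the low one.

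Among gene-rich bins, those with the fewest covered ends were chr4:42000001-43000000 (9.5 per 100000 over the 6 group means, 36 listed ends), chr5:94000001-95000000 (10.5, 23 listed ends) and chr7:22000001-23000000 (14.03, 22 listed ends, vomeronasal receptors). All 3 carry families of near-identical gene copies, and their low number of listed ends goes with their low level. Whether reads there could be placed uniquely was not tested. Gene-poor bins with many covered ends were chr4:113000001-114000000 with Skint5 (130 per 100000, 259 listed ends) and chr3:17000001-18000000 (118). Over the mean of the 6 groups the highest of all bins was chr3:106000001-107000000, a middle bin with 11 gene starts (150 per 100000). Of the 5 highest by this mean 1 was gene-rich, chr1:171000001-172000000 (130 per 100000), which runs from the antibody receptor gene Fcgr4 to Slamf6. The mean joins groups with different levels: in WT resting cells the chromosome 3 bin held 143, below the gene-rich bins chr17:34000001-35000000 (178), chr10:80000001-81000000 (156) and chr1:171000001-172000000 (152).

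Promoter ends were followed in the same way. In gene-rich bins 5.98% of promoter ends beside a GATC were listed in at least 1 library, in the middle 3.40% and in gene-poor bins 1.97%, or 12 ends. Per 100000 covered ends of the bins, promoter ends of gene-rich bins numbered 228, 266 and 242 in WT resting replicates and 264, 238 and 183 in mutant ones. With LPS+IL4 they numbered 130, 122 and 177 in WT and 134, 117 and 123 in mutant cells. The resting and activated libraries did not overlap, and the difference was -103 (exact permutation p = 0.005, the smallest possible). With LPS alone the numbers were 102, 81.5 and 108 in WT and 98.5, 111 and 74.0 in mutant cells, all below the LPS+IL4 libraries. Promoter ends of middle bins numbered 51.7 ± 8.80 in WT resting, 36.6 ± 6.02 in WT LPS+IL4 and 21.7 ± 8.10 in WT LPS cells (SD, n = 3). In mutant cells they numbered 39.2 ± 21.7, 36.9 ± 6.0 and 23.0 ± 5.17. Resting and LPS+IL4 libraries overlapped for middle bins in both genotypes, and their difference was not tested. Gene-poor bins had 0 to 4 listed promoter ends in a library, too few for a contrast.

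Between genotypes no difference in the contrast of gene-rich and gene-poor bins passed the threshold. Over both conditions with reads the mutant ratio was lower by 0.11 on the log2 scale (exact permutation p = 0.02, adjusted p = 0.0867 over 13), which did not pass the threshold after adjustment. At rest the difference was -0.17, with no overlap between 3 and 3 libraries (exact p = 0.1, the smallest possible), and with LPS+IL4 it was -0.04 (exact p = 0.4). Whether these 2 differences differ was not tested. For covered ends the genotype difference over 18 libraries was -0.01 (exact p = 0.615), and with LPS -0.01 (exact p = 0.8).

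Bin by bin on reads, edgeR called 0 of 1914 bins between genotypes at rest (0% called, 135 at an unadjusted p under 0.05, and 12 by DESeq2) and 0 with LPS+IL4 (60 unadjusted, 0 by DESeq2). It called 0 for the difference of the activation effect between genotypes (105 unadjusted). These counts of 0 do not show that bins were alike. On covered ends limma called 0 of 1909 with LPS+IL4 (74 unadjusted) and 0 with LPS (50 unadjusted), and 1 at rest (0.0524% called). That bin, chr10:84000001-85000000 (6 gene starts, Nuak1 to Ric8b), held 27.8, 30.5 and 18.6 covered ends per 100000 in WT and 44.5, 73.9 and 58.9 in mutant resting cells (1.13 ± 0.25, limma adjusted p = 0.0462), and its call was lost without WT resting replicate 1 or 3 or mutant resting replicate 2 or 3.

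Per chromosome, chromosomes 11 and 17, which are among the richest in genes, held a smaller share of reads with LPS+IL4 than at rest, while chromosome 7, the richest, did not pass the test on reads. Covered ends per bin per 100000, as the mean of the 6 groups, were highest on chromosomes 17 (61.3), 4 (56.3) and 7 (55.3) and lowest on 18 (45.8), 9 (48.2) and 5 (49.4). The order differed by condition: in WT resting cells chromosomes 17 (64.7), 11 (58.3) and 15 (56.8) were highest, and with LPS 17 (58.7), 1 (57.2) and 3 (57.1). Chromosomes 7, 17 and 11 have the most gene starts per bin (13.7, 13.2 and 13.1) and chromosome 16 the fewest (5.90). Chromosome 17 stood at 62.9, 64.7 and 66.4 in the WT resting replicates, 59.5, 60.4 and 60.1 with LPS+IL4 and 58.5, 58.6 and 59.1 with LPS. Chromosome 19 went from 54.6, 55.6 and 56.4 to 46.7, 46.8 and 47.5, and stood at 47.6, 42.5 and 46.3 with LPS. On neither chromosome did resting and activated libraries overlap.

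With LPS+IL4 the reads of 11 of 18 chromosomes changed in WT cells by edgeR's test (61.1% called), adjusted over the 18 chromosomes. Chromosomes 9, 11, 15, 17 and 19 were lower (27.8% called) and 1, 2, 3, 6, 13 and 14 higher (33.3%). The falls on 11, 17 and 19 were -0.34 ± 0.07, -0.38 ± 0.08 and -0.40 ± 0.08 on the log2 scale (SE). In mutant cells 8 changed (44.4% called), with 9, 11, 17 and 19 lower and 1, 3, 6 and 13 higher, and chromosome 19 fell by 0.54 ± 0.08. On covered ends limma called 11 in WT (61.1%) and 10 in mutant cells (55.6%). Without WT resting replicate 2 or 3 the WT count on reads was 7. Between genotypes 0 chromosomes differed at rest, and 1 did with LPS+IL4 (5.56% called), chromosome 1, higher in mutant cells by 0.15 ± 0.04 (edgeR adjusted p = 0.00212). Shares of the same total move against each other, so a fall on some chromosomes entails a rise on others.

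The gene-rich excess in reads per bin was present within single chromosomes. The reads ratio of gene-rich to gene-poor bins of the same chromosome was above 0 in 12 of 12 libraries on 17 of 18 chromosomes, with resting means from 0.13 on chromosome 9 to 2.21 on chromosome 19. On 18 of 18 chromosomes it was lower with LPS+IL4, by 0.16 on chromosome 6 to 1.12 on chromosome 9, and on 12 of 18 the resting and activated libraries did not overlap. Chromosome 9 was above 0 in 5 of 12 libraries, and without the ends listed in all 18 libraries it was above 0 in 12 of 12, with means of 1.96 at rest and 0.71 with LPS+IL4. On covered ends the ratio over all 18 libraries ran from -0.58 to 0.22 on chromosome 1 and from 0.0093 to 1.43 on chromosome 19. On that scale the excess was thus not present in every library on each chromosome.

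**Figure D5:**
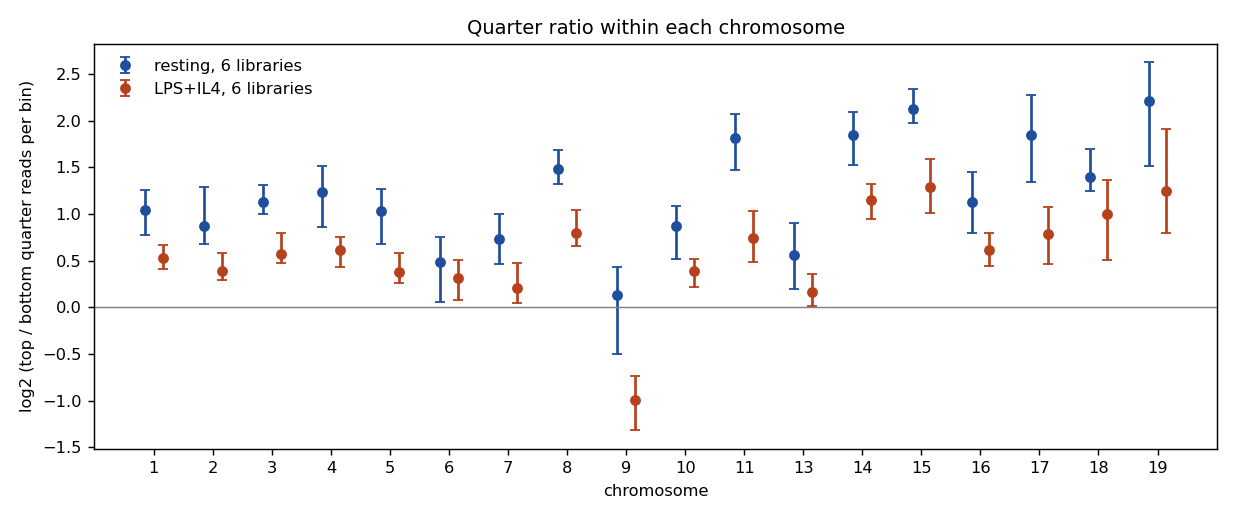
Log2 ratio of reads per bin, gene-rich over gene-poor bins of the same chromosome, for each of 18 chromosomes, as the mean of 6 resting and of 6 LPS+IL4 libraries with bars from the lowest to the highest library. The LPS+IL4 mean lies below the resting mean on 18 of 18 chromosomes, and chromosome 9 alone has activated libraries below 0.

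Over the 18 chromosomes, which share libraries and differ in listed ends, Pearson's r between gene starts per bin and reads per bin was 0.65 in WT resting and 0.60 in WT LPS+IL4 cells. For covered ends it was 0.62 at rest, 0.33 with LPS+IL4 and 0.02 with LPS, and Spearman's rho was 0.37, 0.11 and -0.10. Listed ends per bin went with gene starts at r = 0.75.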

How the data were processed

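The authors deposited read counts per 24 bp fragment end for the 12 libraries of resting and LPS+IL4 cells, whole numbers per the file headers, and coordinates without a value (other) for the 6 LPS libraries. Mapping was to mm10 with Bowtie, and with Bowtie2 for LPS, per the submitters' processing notes, with parameters not given in the sources used here. Genes were placed by their lower coordinate in RefSeq GRCm38.p6, the build of mm10. Reads and covered ends were summed per 1 Mb bin and scaled to the total of the 1914 bins in each library. Reads per bin were fitted with edgeR 4.0.16 over 12 libraries (quasi-likelihood, mean of at least 10 reads) and covered ends with limma 3.58.1 over 18 (log2 share, pseudocount of 1, mean of at least 5 ends), adjusted by Benjamini-Hochberg at 0.05, in R 4.3.3. Planned edgeR fits for LPS were replaced by limma, since the files hold no counts. Both fits were tested on simulated data. Ratios of gene-rich to gene-poor bins were compared by exact two-sided permutation over libraries within genotype or condition, and against 0 by sign flips, in Python 3.11.15 with scipy 1.17.1. DESeq2 1.42.0 was an alternative. Bins named in the text were the 5 with the most gene starts, the 3 gene-rich bins with the lowest and the 3 gene-poor bins with the highest share of covered ends, the 5 bins with the highest share, and up to 5 called bins per test with the largest change and no overlap between groups; of these the text gives values for the ones described, and 1 bin and some genes are not reported here. The members and gene lists were chosen with earlier results of these data known. Same-numbered libraries did not deviate together (correlations of -0.03 to 0.05 over 18 pairs).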

Additional observations from a re-analysis of the deposited data

How the results depend on the processing

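On log2 ratios, the drop with activation kept its direction in 28 of 28 alternatives for reads (-0.85 to -0.32) and 30 of 30 for covered ends (-0.59 to -0.17), and its side of the threshold except within a library set, where the exact p cannot go below 0.167. The gene-rich over gene-poor ratio lost its call or turned per listed end (0.17 for reads and -0.49 for covered ends) and as the mean of 3 classes by listed ends (-0.29 for covered ends). The genotype difference in covered ends turned above 0 with the median bin (0.013), with ends of at least 10 reads (0.00039) and in the first library set (0.0064), and ranged from -0.029 to 0.0026 with single libraries left out. For reads it was -0.17 and -0.035 within the sets. The covered ends difference of cluster bins was 0.039 with ends of at least 2 reads, 0.12 thinned, 0.084 without ends in at least 8 of 12 libraries, 0.15 in the second set and -0.34 with ends of at least 10 reads. Its cause was not tested.

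Replicate numbers did not pair the samples. With a replicate block the gene-rich over gene-poor ratio of covered ends was 0.13 (exact p = 0.052), and the bins called on reads were 2 in WT and 1 in mutant activation. No other call changed under the block.

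Bins called on reads for WT and mutant activation were 33 and 42 at 2 Mb (fewer bins with more reads), 15 and 16 with all reads outside the bait as library size, 81 and 81 by DESeq2, 51 and 66 for covered ends in edgeR, 1 and 3 without ends in all 18 libraries, and 0 to 6 and 1 to 5 with 1 library left out. They were 2 in WT with reads capped, 16 in mutant with TMM factors, and 12 for genotype at rest by DESeq2. On covered ends WT activation gave 91 bins with only the 2 groups compared and 25 to 56 with 1 library left out, mutant activation 60 to 81, genotype at rest 0 with only those groups, at 2 Mb, with the library set as block or a pseudocount of 0.5 and 0 to 1 with 1 library left out, and genotype with LPS+IL4 0 to 1. WT chromosomes called were 7 to 11 on reads and 9 to 13 on covered ends with 1 library left out. Scaling by DpnII ends of the genome was not run, since no genome was used. Single reads limit depth: 26.4% to 30.2% of covered ends had 1 read.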
